A study of Mus musculus with 6 samples.

Results

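Goblet cells and enterocytes of untreated mouse intestinal monolayers were compared for the genes that set the 2 classes apart, and above all for the machinery of the endoplasmic reticulum (ER) and the secretory pathway. The cells came from the 2 libraries treated with DMSO, the solvent control of a study of tunicamycin-induced ER stress. The class of each cell is the name that the authors wrote into its cell label. After a quality filter, 214 goblet cells and 2083 enterocytes were compared, that is 2297 of the 5026 cells kept from all 6 libraries of the series. DMSO replicate 1 held 105 goblet cells and 1046 enterocytes, and DMSO replicate 2 held 109 and 1037. A further 46 untreated cells carried the authors' name tuft and are shown beside the 2 classes.

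All cells carried the genotype labelled Rosa26-floxed STOP-Cas9 x cmv-cre on B6, in which a broadly active CMV-driven Cre removes the stop cassette before Cas9, so that the controls share this allele with every treated set. Spheroids were dissociated, plated on Matrigel-coated transwell inserts and differentiated by lowering the L-WRN conditioned medium. DMSO was given on differentiation day 3 and cells were harvested on the morning of day 4, after scraping, dissociation and removal of dead cells. Libraries used the 10x Genomics 3′ V2 chemistry, which counts the 3′ ends of transcripts as unique molecular identifiers (UMIs). The series text calls the 2 libraries biological replicates. No label states whether they came from separate animals, so p-values carry no information on spread between animals. With the library as a block, they rest on how the class difference varies between the 2 libraries, a spread estimated largely across genes.

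Enterocytes absorb nutrients across a brush border of microvilli, whereas goblet cells make and store the mucus that covers the epithelium. The main mucus protein is a large, heavily glycosylated and disulfide-bonded polymer, and its synthesis begins in the ER, where proteins cross the membrane, receive N-linked sugars and are folded. Cells that secrete much protein are known for an extended ER and for a form of the unfolded protein response that operates without an added stress.

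Summed UMIs were 17429023 and 16755382 for enterocytes and 1296273 and 1363224 for goblet cells, in replicates 1 and 2. The median goblet cell held 11664 and 11573 UMIs, against 15652 and 14757 for the median enterocyte. With each cell thinned to 5000 UMIs, the median number of genes was 1684 and 1693.5 in goblet cells and 1805 and 1810 in enterocytes. UMIs of the mitochondrial genome made up a median of 4.40% and 4.45% of a goblet cell and 8.84% and 8.80% of an enterocyte. The labels and files do not state how the authors assigned classes. The classes rest on the expression of these same cells, so a call between them describes the classes and is no independent evidence that they differ.

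The 6 genes used as goblet markers set the class apart in both libraries. Levels are given in CPM, the UMIs of a gene relative to the total of its class sum, with the 4 totals scaled to each other by the trimmed mean of M-values. Muc2, the gel-forming mucin of intestinal mucus (chr7:141690340-141754693, plus strand, GRCm38), stood at 11.3 and 6.34 CPM in enterocytes of replicates 1 and 2 and at 1605 and 1341 CPM in goblet cells. Tff3, a trefoil peptide secreted with mucus (chr17:31125306-31129646, minus strand), stood at 1524 and 1555 CPM in enterocytes and at 108208 and 94730 CPM in goblet cells. Both goblet sums lay far above both enterocyte sums for each of these genes.

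Zg16, a lectin-like protein of the mucus (chr7:127050156-127087328, minus strand), stood at 161 and 217 CPM in enterocytes and 64290 and 62761 CPM in goblet cells. Clca1, a protease of mucus (chr3:145003817-145032776, minus strand), stood at 12.2 and 9.48 CPM against 3767 and 2294 CPM. Agr2, an ER-resident protein of the disulfide isomerase family that is needed for mucin folding (chr12:35992907-36004087, plus strand), stood at 7.55 and 6.34 CPM against 3711 and 3398 CPM. Atoh1, the transcription factor that starts the secretory lineage (chr6:64729125-64731245, plus strand), stood at 2.39 and 1.51 CPM against 587 and 509 CPM. The log2 difference of goblet cells minus enterocytes was therefore smallest for Tff3, at 6.04 ± 0.05 (standard error of the fit), and largest for Agr2, at 9.0 ± 0.09. No p-value is given for these 6 genes, since the class names rest on such genes.

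**Figure D1:**
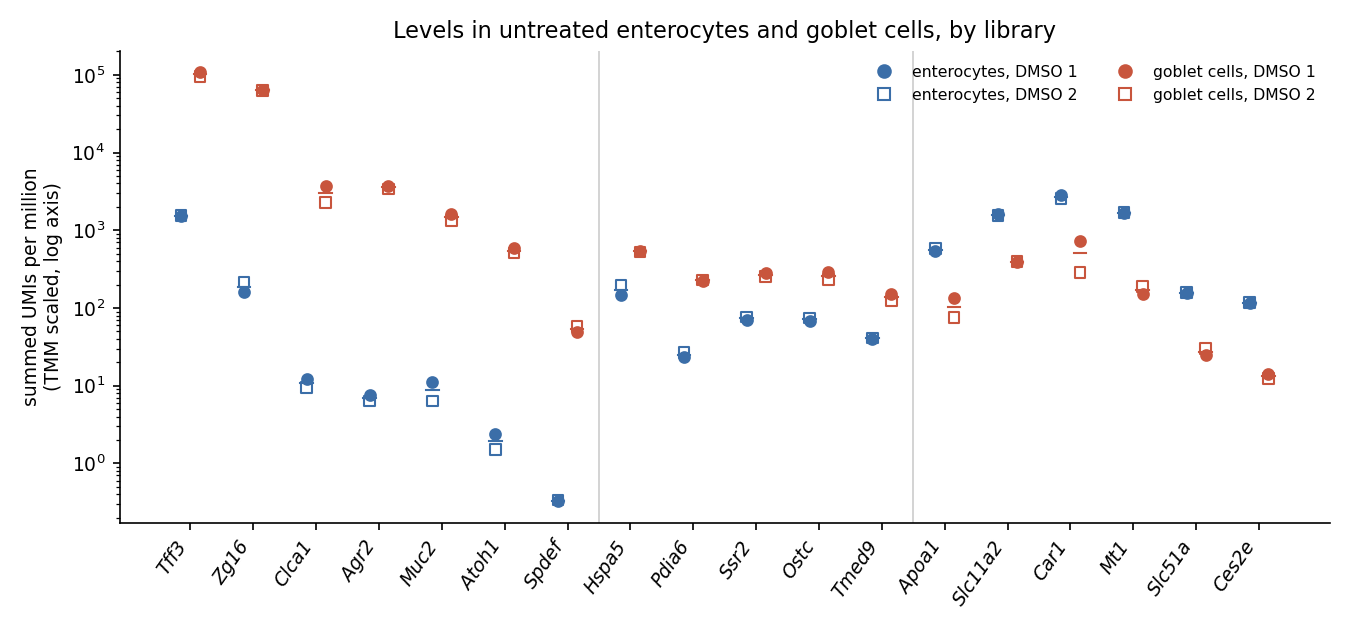
Levels of 18 genes in the 4 class sums, in CPM on a log axis. Filled circles are DMSO replicate 1, open squares are DMSO replicate 2 and short bars are the mean of both. Goblet cells (red) lie above enterocytes (blue) for the 7 genes at left and the 5 ER and transport genes in the middle, and below them for the 6 genes at right. Car1 has the widest gap between the goblet sums shown at right, at 736 and 285 CPM.

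The goblet transcriptome was dominated by few secreted products. Tff3, Zg16 and Fcgbp, a mucus protein added here after its values were seen, together took 18.8% and 17.6% of all goblet UMIs and 0.389% and 0.383% of enterocyte UMIs. Tff3 alone took 10.1% and 9.03% of goblet UMIs. The 10 leading genes held 28.1% and 27.2% of goblet UMIs, against 16.6% and 16.0% in enterocytes, where mt-Co1 and Malat1 led.

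Within the class, markers were unevenly spread over cells. Of the goblet cells with at least 5000 UMIs, thinned to that number, 48 of 97 and 55 of 102 held UMIs of all 6 markers, and 84 and 85 held UMIs of at least 4. Tff3 took a median of 10.9% and 10.3% of a goblet cell, with 10% of the cells at or below 6.57% and 5.12%. Zg16 varied more, with a median of 6.0% and 6.12%, and 16 and 20 of these cells had under 1% Zg16.

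Enterocytes held traces of the same transcripts. After thinning, a Tff3 UMI was found in 76.1% and 75.4% of enterocytes (1033 and 1024 cells) and in 80.8% and 89.5% of cells named tuft (26 and 19 cells). For Zg16 the shares were 35.2% and 34.3% in enterocytes and 38.5% and 42.1% in cells named tuft, so the enterocyte share did not exceed that in this class. Cells named tuft are no clean background, since some held much Tff3. The level that 10% of cells passed was 85 and 106.6 thinned Tff3 UMIs there, against 15 and 16 in enterocytes. Whether the enterocyte traces are background was not tested. The enterocyte level of Tff3 was 1.60% and 1.83% of the goblet level when each was divided by its total UMIs, and that of Zg16 was 0.284% and 0.386%. For Muc2 the share of enterocytes with a UMI was 2.03% and 1.56% after thinning. Fcgbp went beyond this pattern, at 7.66% and 7.46% of the goblet level in enterocytes against 2.55% and 5.12% in cells named tuft. Without thinning, 94.8% and 93.0% of enterocytes had a Tff3 UMI.

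Across the 10556 genes tested, 1789 (16.9%) were higher and 1912 (18.1%) were lower in goblet cells than in enterocytes, with edgeR's quasi-likelihood F test and a Benjamini-Hochberg adjusted p below 0.05. Together these calls cover 35.1% of the genes tested. The shares of 16.9% higher and 18.1% lower are the background for every count of list members below. With a difference of at least 2-fold as well, 751 genes (7.11%) were higher and 793 (7.51%) were lower. The scaling sets this balance in part: scaled by total counts, 1292 were higher and 2624 lower, so that 33.0% of the called genes were higher in place of 48.3%. The median log2 difference of all genes then moved from -0.02 to -0.19, a shift that all values of that setting share. In a fit over all 6 libraries, leaving out DMSO replicate 1 gave 1093 higher and 1175 lower genes, and leaving out DMSO replicate 2 gave 1153 and 1399.

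**Figure D2:**
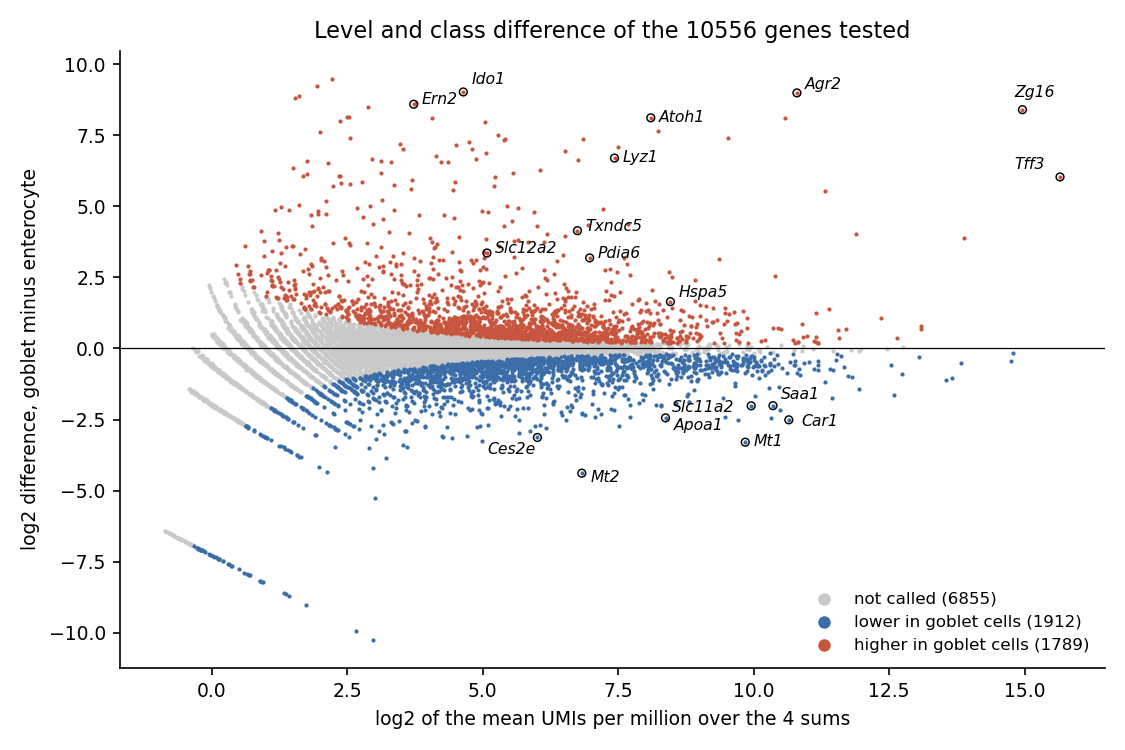
Each point is 1 of the 10556 genes tested, with the log2 of its mean level over the 4 class sums on the horizontal axis and the log2 difference of goblet cells minus enterocytes on the vertical axis. Red marks genes called higher in goblet cells (1789), blue genes called lower (1912) and grey genes not called. Among the labelled genes Mt2 lies lowest and Ido1 highest, and the separate line at lower left holds genes with no UMI in goblet cells, whose fitted difference is no measure of size.

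Transcription factors of the secretory lineage were higher in goblet cells wherever they could be tested. All 14 tested members of that list were called higher, of 19 listed, with a median log2 difference of 2.89 beside -0.02 for all genes tested. A gene could be tested on its level in a single class. Members as low in enterocytes as Spdef, Foxa3, Creb3l4, Creb3l1 and Bhlha15 were tested only through their goblet level. The count and median therefore describe the list and are no support. Spdef, which drives goblet maturation, stood at 0.326 and 0.337 CPM in enterocytes and 49.8 and 57.7 CPM in goblet cells (log2 difference 7.29 ± 0.29). Foxa3, a forkhead factor of the goblet lineage, stood at 1.03 and 1.51 CPM against 92.9 and 93.1 CPM (6.18 ± 0.20 on the log2 scale). Creb3l4, a membrane-bound factor related to those that drive secretory genes, stood at 0.217 and 0.112 CPM against 19.9 and 26.2 CPM. Creb3l1, of the same family, stood at 0.978 and 0.729 CPM against 14.1 and 7.69 CPM. The class sums overlapped for none of these 4 genes, which is a weak criterion with 2 sums per class. The share of all genes tested without overlap is not given here. The log2 difference of Creb3l4, 7.01, was 7.65 without DMSO replicate 1 and 6.36 without DMSO replicate 2.

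Bhlha15, known as a scaling factor of secretory cells, was low, at 0.272 and 0.112 CPM in enterocytes and 3.32 and 3.85 CPM in goblet cells, and its call was lost without DMSO replicate 2 (log2 difference 3.48, adjusted p = 0.065). Klf4, which goblet cells and mature enterocytes both use, differed by 0.87 ± 0.07 on the log2 scale. The enterocyte transcription factors were split, with 7 of 26 higher and 7 lower in goblet cells (26.9% each, against 16.9% and 18.1% of all genes) and a median of -0.24. Lower ones included Vdr, the vitamin D receptor (-1.43), Nr1h4, the bile acid receptor (-1.35), and Maf (-1.43), and higher ones included the homeobox gene Cdx1 (1.72).

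Notch signalling restrains secretory fate, and cells that become secretory present the ligands. Of 17 tested genes of that pathway 5 were higher (29.4%, against 16.9% of all genes) and 3 lower (17.6%, near 18.1%) in goblet cells. The sign of the list's median depends on the setting. Several of these calls also do. Dll1 lost its call with DESeq2 (adjusted p = 0.34), and Psenen with DESeq2 (0.11) and when scaled by total counts (0.34). Among the lower genes, Notch2 and Aph1a lost their calls with DESeq2 (0.24 and 0.21). Lfng, an enzyme that adds sugars to Notch receptors, stood at 0.435 and 0.393 CPM in enterocytes and 43.1 and 38.5 CPM in goblet cells. Its log2 difference was 6.58 ± 0.32, and it could be tested only through its goblet level. The ligand Dll4 stood at 2.72 and 3.70 CPM against 8.30 and 16.2 CPM (1.93 ± 0.35), and its call was lost without DMSO replicate 2 (1.56, adjusted p = 0.091).

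The list of mucus and goblet products includes genes used as markers above, Agr2 among them. Its count and median are therefore no separate support. Of 23 listed products 18 were tested, and 16 were higher and 1 lower, with a median log2 difference of 6.77. Here too, members near 0 in enterocytes could be tested only through their goblet level. Retnlb, Muc5ac and Muc5b were listed at 0 in all 4 sums. Tpsg1, a membrane-anchored tryptase, stood at 3.26 and 2.64 CPM in enterocytes and 599 and 605 CPM in goblet cells (7.67 ± 0.11). Sct, which encodes the hormone secretin, stood at 42.9 and 39.4 CPM against 283 and 289 CPM (2.80 ± 0.09), while cells named tuft held 563% and 1363% of the goblet level when each was divided by its total UMIs. The member called lower was Guca2a, which encodes the peptide guanylin (-1.37, named after its value was seen).

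Among the 15 highest differences of well-measured genes, several are not products of the mucus. Ido1, which breaks down tryptophan, had 3 UMIs in all enterocytes and stood at 60.6 and 39.2 CPM in goblet cells, a ratio of 598 with a 95% counting interval from 200 to 2938, and a fitted log2 difference of 9.03 that was 7.17 with enterocytes drawn to the number of goblet cells. Capn9, a calpain protease, stood at 0.326 and 0.168 CPM against 63.9 and 66.9 CPM. Fer1l6, of the ferlin family of membrane proteins, stood at 1.52 and 1.18 CPM against 246 and 210.1 CPM. Kcne3, a subunit of potassium channels, stood at 0.380 and 0.617 CPM against 99.6 and 66.9 CPM, and Hepacam2 at 3.15 and 2.08 CPM against 387 and 332 CPM. The log2 difference of Kcne3, 7.35, was 6.71 without DMSO replicate 1. In each case both goblet sums lay far above both enterocyte sums, which follows from this selection.

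ER folding genes were higher in goblet cells as a group. Joined, the 5 lists of ER chaperones, disulfide enzymes, translocon, signal recognition and oligosaccharyltransferase hold 112 genes. Of the 101 that were tested 64 were higher and 6 lower, with a median log2 difference of 0.77, against 16.9% and 18.1% of all genes. Scaled by total counts, 60 were higher and 13 lower with a median of 0.60. Without the marker Agr2, and with the main scaling, 63 of 100 were higher and 6 lower, with a median of 0.77. The summed level of these genes without Agr2 was 1.93 and 1.77 times the enterocyte level in replicates 1 and 2.

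Among ER chaperones 18 of 25 tested genes were higher and 1 was lower. Hspa5, which encodes BiP, the main HSP70 chaperone of the ER, stood at 147 and 197 CPM in enterocytes and 542 and 527 CPM in goblet cells, so both goblet sums lay above both enterocyte sums. Its log2 difference was 1.65 ± 0.09 (adjusted p = 1.59e-20). A single enterocyte of replicate 2 held 14.4% of the Hspa5 UMIs of its class and library. Hyou1, a nucleotide exchange factor for BiP, stood at 3.21 and 3.14 CPM against 23.2 and 11.5 CPM (2.44 ± 0.32). Sil1, another exchange factor of BiP, stood at 10.5 and 10.9 CPM against 50.6 and 51.6 CPM (2.25 ± 0.18). Manf, a BiP-binding protein that cells also secrete, stood at 99.4 and 116 CPM against 483 and 417 CPM (2.07 ± 0.09). Hsp90b1, the ER HSP90, and Calr, a lectin chaperone, differed by 1.24 ± 0.08 and 1.14 ± 0.07. Canx, the membrane-bound partner of Calr, had a log2 difference of -0.05 ± 0.09 and was not called (adjusted p = 0.702).

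Disulfide enzymes held the largest differences of the ER lists. Of 24 tested members, the marker Agr2 among them, 15 were higher and 2 lower. Pdia5, near 0 in enterocytes, could be tested only through its goblet level. Pdia6, a disulfide isomerase, stood at 23.1 and 26.5 CPM in enterocytes and 223 and 230.1 CPM in goblet cells (3.19 ± 0.10, adjusted p = 4.80e-28). Txndc5 stood at 10.6 and 12.2 CPM against 238 and 169 CPM (4.15 ± 0.13). Pdia5 stood at 0.652 and 0.786 CPM against 16.6 and 17.7 CPM (4.55 ± 0.42), and Selenom, a selenoprotein of the ER, at 8.26 and 8.42 CPM against 57.2 and 60.0 CPM (2.81 ± 0.18).

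Oxidases of the same pathway went the other way. Ero1l, which passes electrons from isomerases to oxygen and is known to respond to low oxygen, stood at 665 and 684 CPM in enterocytes and 278 and 357 CPM in goblet cells (-1.09 ± 0.08, adjusted p = 5.78e-15). Its relative Ero1lb had 58 UMIs in enterocytes and none in goblet cells, so that enterocytes were at least 1.34-fold higher when 3 counts are allowed over the goblet class. The call of Ero1lb was lost without either DMSO library, at adjusted p of 0.26 and 0.27.

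Entry into the ER and N-glycosylation followed the chaperones in part. Signal recognition and signal peptidase genes were higher in 12 of 15 cases and lower in none. Spcs2, a signal peptidase subunit, stood at 104 and 113 CPM against 387 and 338 CPM (1.74 ± 0.08). Of the oligosaccharyltransferase, which moves sugar chains onto new proteins, 9 of 12 genes were higher and none lower. Its subunit Ostc stood at 68.1 and 74.5 CPM against 290.4 and 232 CPM (1.87 ± 0.09). Stt3a, the catalytic subunit that acts during translocation, differed by 1.30 ± 0.11, whereas its alternative Stt3b differed by 0.05 ± 0.11 and was not called (adjusted p = 0.762).

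The translocon list was mixed, with 10 of 25 higher and 3 lower and a median of 0.17 that falls to -0.00 when scaled by total counts. Within it the channel and its TRAP complex were higher, with Sec61b at 1.30 ± 0.07, Ssr1 at 1.43 ± 0.11 and Ssr2 at 1.86 ± 0.09. The 3 members called lower, Emc1, Emc2 and Emc6 (named after their values were seen), belong to the ER membrane complex, which inserts membrane proteins. Their log2 differences were -0.94, -0.89 and -0.68.

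Of 22 tested genes for the assembly of the lipid-linked sugar 5 were higher (22.7%, near the 16.9% of all genes) and 1 was lower (4.55% against 18.1%), with a median of 0.08 that is -0.09 when scaled by total counts. Dpagt1, which catalyses the first step and is the target of tunicamycin, stood at 15.9 and 13.2 CPM in enterocytes and 48.1 and 40.0 CPM in goblet cells (1.60 ± 0.18, adjusted p = 3.66e-10). Both goblet sums exceeded both enterocyte sums. In ER-associated degradation 10 of 25 genes were higher and 1 lower, led by Selenos, a membrane adaptor of that pathway, at 47.0 and 49.5 CPM against 329 and 292 CPM (2.68 ± 0.09). Herpud1, Os9 and Vcp of the same pathway differed by 0.81, 0.81 and 0.90.

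**Figure D3:**
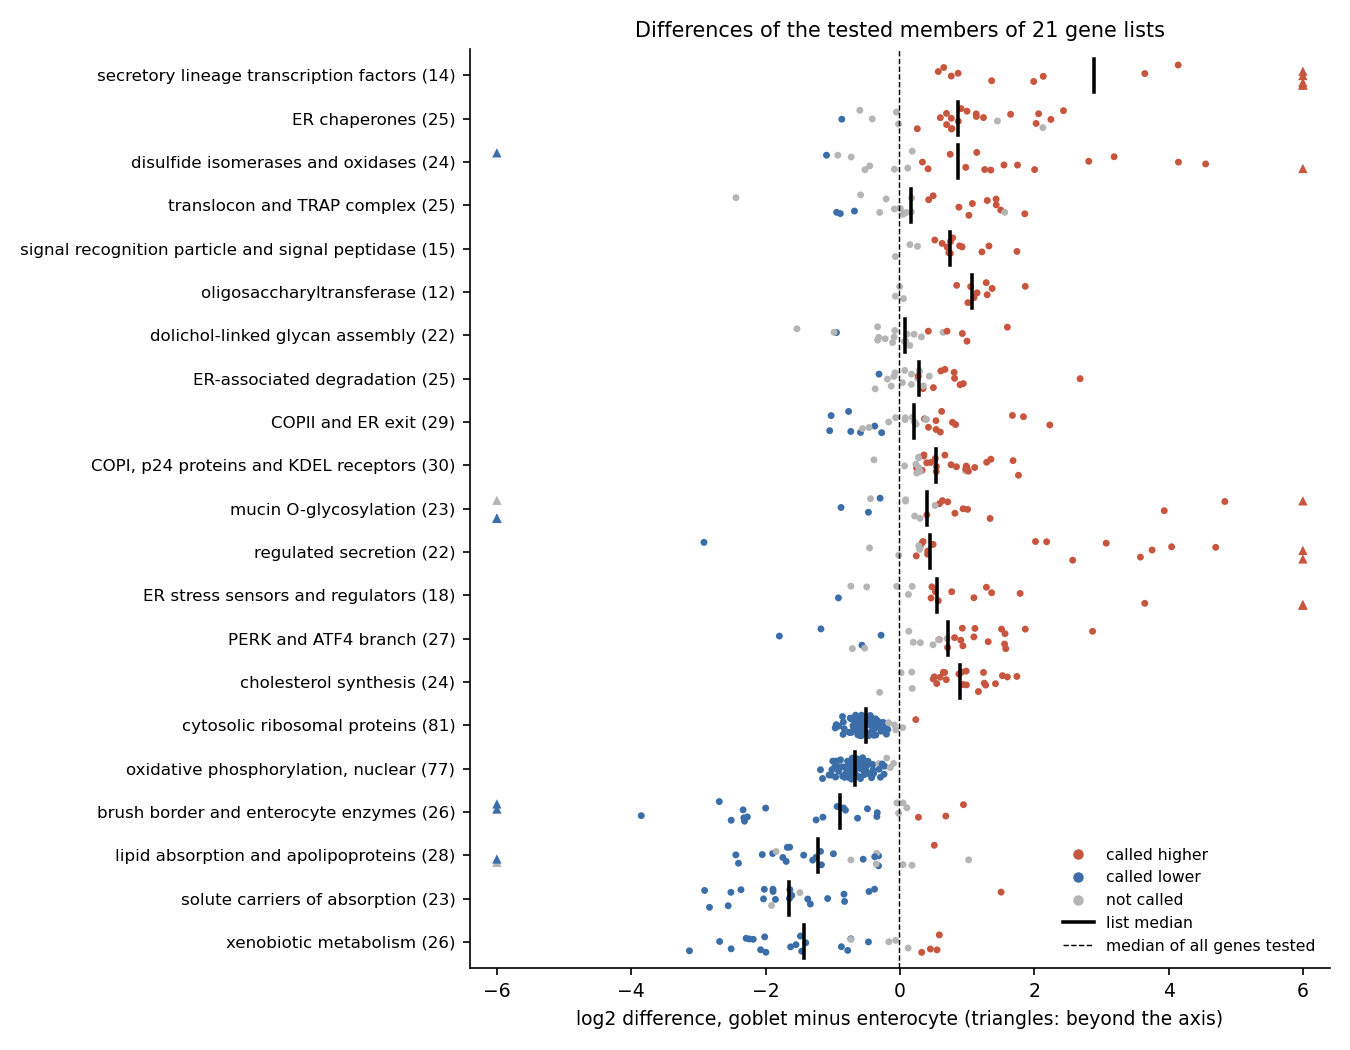
Log2 differences of goblet cells minus enterocytes for the tested members of 21 gene lists, with the number tested in brackets. Each dot is a gene, coloured by its call, black bars are list medians and the dashed line is the median of all genes tested, at -0.02. Triangles are genes beyond the axis. ER, transport and cholesterol lists lie to the right of the dashed line, whereas ribosomal, respiratory and absorption lists lie to its left.

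Promoters of the ER genes were searched for the ER stress response element, the sequence through which ATF6 and XBP1 are known to act, spelled CCAAT, then any 9 bases, then CCACG, and read on both strands from 250 bases before to 50 bases after the RefSeq start. A match was present in 6 of the 19 tested ER chaperone genes with a promoter entry (31.6%), and in 5 of the 13 called higher. Among all 8290 tested genes with an entry 13 had a match (0.157%), as did 9 of the 1405 called higher (0.641%) and 0 of the 1461 called lower. Of these 9 genes called higher, 6 belong to the 5 ER lists, so the counts are not independent of each other. The 250 bases before the start of 4 genes are shown because they carry the match, which is in capitals, with 3 genes called higher and Canx, which was not. They run 5′ to 3′ along the gene and come from RefSeq on GRCm38.p6, with Hspa5 at chr2:34771840-34772089 on the plus strand, Hsp90b1 at chr10:86705445-86705694 on the minus strand, Pdia6 at chr12:17266339-17266588 on the plus strand and Canx at chr11:50325674-50325923 on the minus strand.
Hspa5: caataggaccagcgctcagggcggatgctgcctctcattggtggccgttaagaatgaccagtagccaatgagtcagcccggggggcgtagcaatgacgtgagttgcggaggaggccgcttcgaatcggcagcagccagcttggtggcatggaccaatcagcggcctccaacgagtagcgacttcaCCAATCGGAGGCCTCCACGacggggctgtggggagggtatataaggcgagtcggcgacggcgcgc
Hsp90b1: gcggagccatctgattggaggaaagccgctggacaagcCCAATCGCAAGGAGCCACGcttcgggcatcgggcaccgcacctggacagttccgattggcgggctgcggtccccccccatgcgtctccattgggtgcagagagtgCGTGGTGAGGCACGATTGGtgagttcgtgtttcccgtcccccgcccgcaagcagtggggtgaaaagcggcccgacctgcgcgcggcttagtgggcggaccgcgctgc
Pdia6: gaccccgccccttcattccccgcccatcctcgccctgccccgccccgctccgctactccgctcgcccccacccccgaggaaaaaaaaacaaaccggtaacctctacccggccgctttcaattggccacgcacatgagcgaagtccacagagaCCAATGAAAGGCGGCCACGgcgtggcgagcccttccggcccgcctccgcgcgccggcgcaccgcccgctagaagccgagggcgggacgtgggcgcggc
Canx: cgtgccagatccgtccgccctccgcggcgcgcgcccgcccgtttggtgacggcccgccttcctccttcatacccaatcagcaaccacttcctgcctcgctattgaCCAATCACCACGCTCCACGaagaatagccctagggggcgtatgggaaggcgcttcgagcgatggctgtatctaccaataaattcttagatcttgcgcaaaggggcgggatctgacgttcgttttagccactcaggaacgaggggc
The match began 65 bases before the start of Hspa5, 98 before that of Pdia6 and 145 before that of Canx. Hsp90b1 held 2 matches, 212 and 107 bases before its start. Calr, Creld2 and Dnajc3 held 1 match each and were called higher. Thus Canx held the element and was not called, and the other 8 chaperone genes with an entry that were called higher held no match within this window, which says nothing of other spellings or positions. A related element, spelled ATTGG, then any base, then CCACG, was found in 1 of the 19 ER chaperone genes (5.26%) and in 0.0965% of the tested genes with an entry. The element TGACGTGG, named for the unfolded protein response, was found in 0 of these 19 genes, in 3 of 79 genes of the 5 ER lists (3.80%) and in 1.04% of the tested genes with an entry. It was found in 5 of 25 genes of COPI coats, p24 proteins and KDEL receptors, 3 of 16 called higher and 2 of 9 not called higher. Both were read on both strands.

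Transport between ER and Golgi was covered by 2 lists. Of 30 tested genes of COPI coats, p24 cargo receptors and KDEL receptors, 21 were higher and 0 lower. Tmed9, a p24 protein, stood at 39.9 and 41.2 CPM in enterocytes and 153 and 123 CPM in goblet cells (1.77 ± 0.11). Kdelr2, a receptor that returns escaped ER proteins, stood at 139 and 141 CPM against 347 and 337 CPM (1.29 ± 0.08), and Cope, a coat subunit, differed by 1.35 ± 0.08. For the COPII coats of ER exit, 11 of 29 genes were higher (37.9%, against 16.9% of all genes) and 7 lower (24.1%, against 18.1%). Paralogs of that coat diverged, with Sec24d at 2.23 ± 0.23 and Sec23b at 1.67 ± 0.15, and with Sec23a at -0.73 and Sec24a at -0.59, both called lower and named after their values were seen. The difference of Sec24d was 1.52 without DMSO replicate 1 and 2.83 without DMSO replicate 2, and was called in both.

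Mucins receive O-linked sugars in the Golgi. Of 23 tested genes of that step 11 were higher (47.8%, against 16.9% of all genes) and 5 lower (21.7%, near 18.1%), and 13 of the 36 listed were too low to test. Galnt12, which adds the first sugar, stood at 2.23 and 2.02 CPM in enterocytes and 52.3 and 70.0 CPM in goblet cells (4.84 ± 0.21). Gcnt3, which branches mucin sugars, stood at 229.9 and 225 CPM against 624 and 534 CPM (1.34 ± 0.08). Fut8, which adds core fucose to N-linked sugars and is no enzyme of O-linked sugars, differed by 3.94 ± 0.22. Galnt5 had 1 UMI in enterocytes and 20 in goblet cells, a ratio of 289 with a 95% counting interval from 46.3 to 11989. Its fitted log2 difference, 7.62, was 6.84 without DMSO replicate 1, 8.70 without DMSO replicate 2 and 4.53 with drawn enterocytes.

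Sulfation and sugar supply had 14 of 28 genes higher (50%, against 16.9% of all genes) and 5 lower (17.9%, near 18.1%). Chst4, a sulfotransferase of mucin-type sugars, stood at 0.326 and 0.281 CPM against 61.4 and 28.5 CPM (7.15 ± 0.33). Gmds and Nans, which act in the synthesis of GDP-fucose and sialic acid, differed by 2.18 ± 0.13 and 1.92 ± 0.12. Slc26a2, a sulfate transporter, was lower in goblet cells, at 198 and 217 CPM against 400.5 and 382 CPM in enterocytes (-0.91 ± 0.09).

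Regulated secretion followed, with 16 of 22 tested genes higher and 1 lower. Sytl2, a tether of secretory granules, stood at 1.74 and 2.58 CPM in enterocytes and 227 and 200.1 CPM in goblet cells (6.62 ± 0.15). Its partner Rab27a stood at 1.63 and 1.23 CPM against 39.0 and 36.2 CPM (4.70 ± 0.27), and the granule GTPase Rab3d at 8.04 and 8.53 CPM against 141 and 133 CPM (4.05 ± 0.13). Vamp8, a fusion protein that many cells use, differed by 0.35 ± 0.07, and was not called when scaled by total counts (0.17, adjusted p = 0.057). Scaled by total counts, 11 members of this list were higher and 1 lower.

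The sensors of ER stress were unequal between the classes. Of 18 tested sensors and regulators 12 were higher and 1 lower, with a median of 0.55. Ern2, which encodes the epithelial IRE1β (chr7:122169893-122186207, minus strand), had 2 UMIs in all enterocytes and stood at 29.0 and 23.9 CPM in goblet cells, a ratio of 477 with a 95% counting interval from 127 to 4023. That interval covers counting error only, and the fitted log2 difference, 8.60, moved to 7.51 without DMSO replicate 1, 10.65 without DMSO replicate 2, 7.22 in thinned cells and 5.43 with enterocytes drawn to the number of goblet cells. A fitted value depends on the prior count where so few UMIs are present. Ern2 was called higher in thinned cells and with drawn enterocytes. With 2 enterocyte UMIs it could be tested only through its goblet level. Its calls, also counted in the list above, are thus no support. Its ubiquitous relative Ern1 stood at 8.58 and 8.98 CPM in enterocytes and 9.13 and 10.8 CPM in goblet cells, a log2 difference of 0.18 ± 0.31 that was not called (adjusted p = 0.707) and turned negative in thinned cells, at -0.17. Xbp1, whose mRNA is spliced by IRE1, stood at 63.0 and 66.5 CPM against 192 and 143 CPM (1.37 ± 0.11, adjusted p = 1.40e-14). Eif2ak3, which encodes PERK, stood at 9.51 and 7.86 CPM against 19.9 and 22.3 CPM (1.29 ± 0.25). Summed counts per gene do not separate spliced from unspliced Xbp1.

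Of 27 tested members of the PERK and ATF4 branch 15 were higher and 4 lower in goblet cells, with a median of 0.71. Atf4, the transcription factor of this branch, stood at 80.4 and 85.8 CPM in enterocytes and 175 and 185 CPM in goblet cells (1.12 ± 0.09). Asns, asparagine synthetase, stood at 22.9 and 24.4 CPM against 77.2 and 95.4 CPM (1.87 ± 0.13), and Slc7a11, a cystine transporter, at 7.44 and 7.97 CPM against 63.1 and 50.0 CPM (2.87 ± 0.18). Nupr1, a stress-induced transcription regulator, stood at 55.6 and 80.1 CPM against 199 and 198 CPM (1.56 ± 0.10), and its difference was 2.18 with enterocytes drawn to the number of goblet cells.

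Ddit3, which encodes the pro-apoptotic factor CHOP, was lower in goblet cells, at 39.0 and 56.2 CPM in replicates 1 and 2 against 59.8 and 81.0 CPM in enterocytes (-0.56 ± 0.14, adjusted p = 9.01e-04). The goblet sums did not overlap the enterocyte sums, but the higher goblet sum, of replicate 2, lay close to the lower enterocyte sum, of replicate 1. This call was lost with DESeq2 (adjusted p = 0.10), in thinned cells (0.18), with enterocytes drawn to the number of goblet cells (0.25) and without the library block (0.099). Trib3 and Ppp1r15a, further targets of this branch, had differences of 0.20 ± 0.28 and 0.30 ± 0.21 and were not called, and are named after their values were seen. Qrich1, a regulator described for the same branch, differed by 0.48 ± 0.16 (adjusted p = 0.0201), a call that was lost when scaled by total counts (0.31, adjusted p = 0.15), with DESeq2 (adjusted p = 0.35), in thinned cells (0.64), with drawn enterocytes (0.11) and without DMSO replicate 2 (0.23, adjusted p = 0.56).

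Cell by cell, the ER share was higher and more spread in goblet cells. In cells thinned to 5000 UMIs, the 111 ER genes without Agr2 took a median of 1.64% and 1.36% of a goblet cell, 0.90% of an enterocyte in both libraries, and 1.06% and 1.12% of a cell named tuft. The middle part of the goblet cells, between the quartiles, reached from 1.08% to 2.08% in replicate 1 and from 0.925% to 2.14% in replicate 2, whereas that of enterocytes reached from 0.78% to 1.04% in both. In all, 68 of 97 and 56 of 102 goblet cells lay above 1.18%, the level that 10% of enterocytes passed in each library. The classes thus overlapped in single cells though not in their sums.

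**Figure D4:**
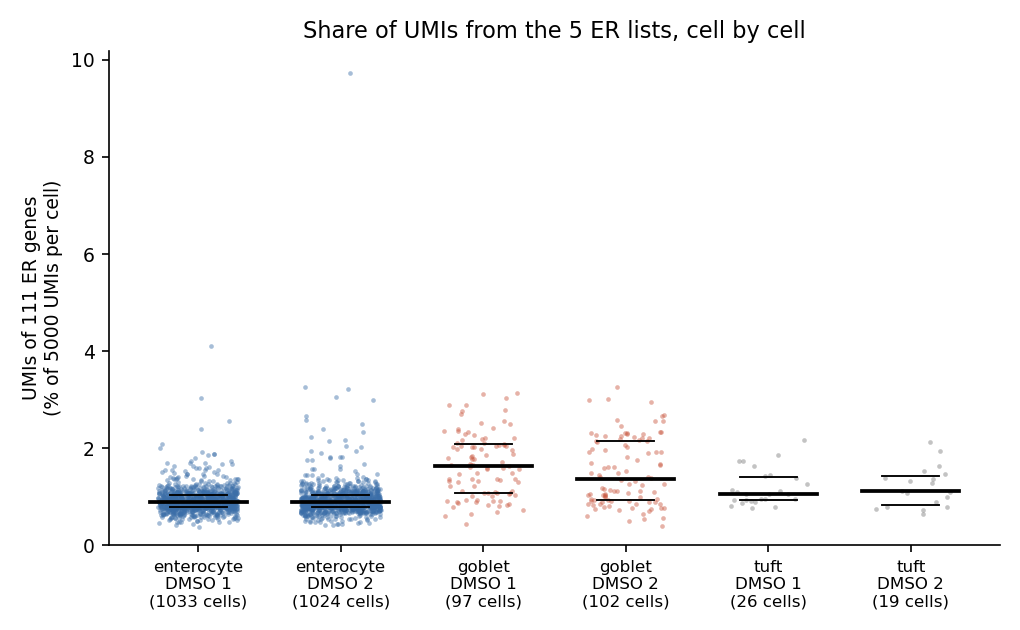
Share of UMIs from the 111 genes of the 5 ER lists without Agr2 in each cell thinned to 5000 UMIs, by class and DMSO library. Each point is a cell, the thick bar is the median and the thin bars are the quartiles. Goblet medians of 1.64% and 1.36% lie above enterocyte medians of 0.90%, and a single enterocyte of DMSO replicate 2 reaches 9.72%.

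Among goblet cells this share moved with Agr2 and not with Tff3. Spearman's rho across cells was 0.83 (97 cells) and 0.85 (102 cells) between the ER share and Agr2, which is not part of that share. It was 0.02 and -0.09 for Tff3, 0.09 and 0.10 for Fcgbp, 0.28 and 0.34 for Muc2, and 0.22 and 0.42 for Zg16. For 93 genes of brush border, lipid absorption and solute uptake as 1 sum rho was -0.63 and -0.69. The total UMIs of a cell before thinning had a rho of -0.03 and 0.04 with the ER share. These values describe cells that share a library and a fixed total of 5000 UMIs, so that a rise in the share of any gene lowers that of others. Goblet cells that were poor in ER transcripts thus still carried much Tff3 in these libraries, with little Agr2 and more absorption transcripts.

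**Figure D5:**
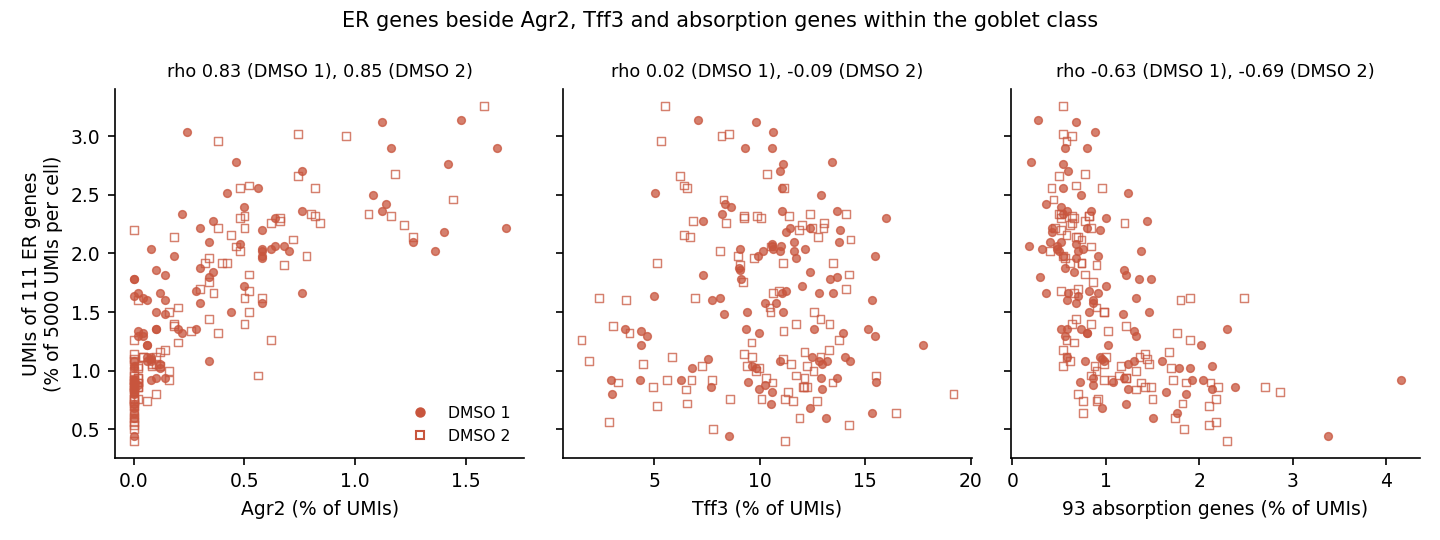
ER share of each goblet cell (vertical axis, percent of 5000 UMIs) against its share of Agr2, of Tff3 and of 93 absorption genes. Filled circles are DMSO replicate 1 (97 cells) and open squares DMSO replicate 2 (102 cells). The ER share is higher in cells with more Agr2 (rho 0.83 and 0.85), has no order along Tff3 (0.02 and -0.09) and is lower in cells with more absorption transcripts (-0.63 and -0.69).

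The enterocyte side was led by absorption genes, many of which define the class, so no p-value is given for single genes of it. Of 26 tested brush border genes and enzymes 19 were lower and 3 higher in goblet cells, of 28 lipid absorption genes 19 and 1, and of 23 solute carriers 20 and 1. Median log2 differences were -0.89, -1.22 and -1.64. Slc11a2, the intestinal iron importer, stood at 1629 and 1554 CPM in enterocytes and 387 and 399 CPM in goblet cells (-2.02 ± 0.07). Slc40a1, the iron exporter, stood at 697 and 710.3 CPM against 156 and 225 CPM (-1.89 ± 0.09). Slc10a2, which takes up bile acids, stood at 680.4 and 659.6 CPM against 222 and 218 CPM, and Slc51a, which exports them, at 157 and 158 CPM against 24.9 and 30.0 CPM.

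Apoa1, an apolipoprotein of lipid export, stood at 538 and 581 CPM in enterocytes and 133 and 75.4 CPM in goblet cells (-2.44 ± 0.12). Apob, the scaffold of chylomicrons, stood at 665 and 659.9 CPM against 208 and 206 CPM (-1.68 ± 0.08). Car1, a carbonic anhydrase of surface cells, stood at 2830 and 2570 CPM against 736 and 285 CPM (-2.51 ± 0.12), and its difference was -3.18 without DMSO replicate 1. Hsd17b13, a lipid droplet enzyme, had 459 UMIs in enterocytes and none in goblet cells, so that enterocytes were at least 10.6-fold higher with 3 counts allowed over the goblet class, and its call was lost with DESeq2 (adjusted p = 0.34). In no gene of these 2 paragraphs did the class sums overlap. With 2 sums per class, and genes named for large differences or high levels, this only describes these genes. The share of all genes tested without overlap is not given beside it. Once every cell was thinned to 5000 UMIs, Car1 differed by -3.22 and Slc11a2 by -2.78.

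Among called genes with a mean of at least 20 CPM over the 4 sums, the greatest shortfalls of goblet cells were in metal binding. Mt2 and Mt1, the metallothioneins, stood at 192 and 242 CPM and 1657 and 1682 CPM in enterocytes and at 9.96 and 10.8 CPM and 150.2 and 189 CPM in goblet cells, with log2 differences of -4.39 ± 0.16 and -3.30 ± 0.09. Of 20 tested metallothionein and antioxidant genes 13 were lower and 3 higher, the latter including Txn1, thioredoxin, at 1333 and 1336 CPM against 3266 and 3105 CPM (1.25 ± 0.06). Detoxification genes were lower in 18 of 26 cases and higher in 4, with Cyp2c55 at 2349 and 2355 CPM against 556 and 482 CPM and the carboxylesterase Ces2e at 114 and 117 CPM against 14.1 and 12.3 CPM. Further genes of the 15 lowest were Psca (-3.25), Slc22a4, a carnitine and ergothioneine transporter (-3.14, or -3.97 without DMSO replicate 2), and Tm4sf20 (-2.72).

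Respiratory and ribosomal genes were lower in goblet cells almost without exception. Of 77 nuclear genes of oxidative phosphorylation 73 were lower and 0 higher, with a median of -0.66. Of 13 genes of the mitochondrial genome 11 were lower, with mt-Nd1 at 5814 and 5743 CPM in enterocytes and 1937 and 2351 CPM in goblet cells (-1.44 ± 0.06), beside the lower mitochondrial share of goblet cells given above. Of 81 cytosolic ribosomal protein genes 76 were lower and 1 higher, with a median of -0.51. Those medians were -0.83, -1.15 and -0.68 when scaled by total counts, and -0.55, -0.86 and -0.40 when scaled by totals without Tff3, Zg16 and Fcgbp, an alternative added after the data were seen. Restricted to cells with at most 10% mitochondrial UMIs they were -0.74, -0.77 and -0.70.

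Cholesterol synthesis was higher in goblet cells, with 20 of 24 tested genes called higher and 0 lower and a median of 0.90. Hmgcs1, an early enzyme of the pathway, stood at 408 and 434 CPM in enterocytes and 1073 and 940.2 CPM in goblet cells (1.26 ± 0.07, adjusted p = 2.24e-18). Fdps stood at 311 and 354 CPM against 868 and 913 CPM (1.42 ± 0.07) and Mvk at 19.2 and 20.9 CPM against 71.4 and 63.1 CPM (1.74 ± 0.15). Both goblet sums exceeded both enterocyte sums for each of the 3 genes, a weak criterion with 2 sums per class. In cells with at most 10% mitochondrial UMIs 19 genes were higher and 1 lower, with a median of 0.62.

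Markers of other cell types were checked in the class sums. Paneth cells are granule-bearing antimicrobial cells of the crypt. All 5 of their markers that could be tested were called higher in goblet cells, with Lyz1 at 3.26 and 3.25 CPM in enterocytes and 411 and 274 CPM in goblet cells, Mmp7 at 1.85 and 1.46 CPM against 153 and 109 CPM, and Ang4 at 0.761 and 0.0561 CPM against 114 and 41.5 CPM. Ang4, near 0 in enterocytes, could be tested only through its goblet level. Nupr1, given above with the PERK and ATF4 branch, is also counted among the 5. Itln1 stood at 2.39 and 2.08 CPM against 29.0 and 2.31 CPM, so it was high in the goblet sum of replicate 1 alone, and its call was lost without that library (log2 difference 0.14, adjusted p = 0.96). The log2 difference of Ang4, 7.52, was 9.13 without DMSO replicate 1. Of 14 listed markers in the matrix 8 had no UMI in goblet cells, among them 5 of the 6 defensins listed, and Defa24 had 30 UMIs in goblet cells, all in replicate 1. At least 1 UMI of Lyz1, Mmp7 or Ang4 was found in 48 of 97 and 41 of 102 thinned goblet cells, of which 44 and 34 also held Muc2. The summed level of the list was 63.9 and 87.0 CPM in enterocytes, most of it Nupr1, and 931 and 625 CPM in goblet cells. The part of Paneth-like cells in the goblet values was not tested.

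Chga and Chgb, of enteroendocrine cells, had no UMI in goblet cells, and 21 of 27 genes of that list had none. Its summed level was 114 and 175 CPM in enterocytes and 292 and 312 CPM in goblet cells, where Sct made up most of it. Of the tuft list 16 of 20 genes had no UMI in goblet cells, Dclk1 and Pou2f3 among them. Of 21 immune, stromal and endothelial genes 17 had no UMI in goblet cells and 13 none in enterocytes, Ptprc and Col1a1 among both. Their summed level was 9.83 and 9.37 CPM in enterocytes and 12.4 and 12.3 CPM in goblet cells. Csf1r, a receptor of macrophages, had 196 UMIs in enterocytes and none in goblet cells, so that enterocytes were at least 4.52-fold higher with 3 counts allowed over the goblet class. Vwf, an endothelial product, stood at 1.03 and 0.729 CPM against 5.81 and 9.23 CPM (3.09 ± 0.55), and its call was lost without DMSO replicate 2 (2.42, adjusted p = 0.11). In the third class named by the authors, Sct had 1206 and 1196 UMIs and Neurod1, an enteroendocrine factor, 34 and 27, against 6 and 5 for Dclk1, so its name is kept here only as the authors' label. Of 11 tested cell cycle genes 1 was higher and 1 lower (9.09% each, against 16.9% and 18.1% of all genes). Mki67, of dividing cells, had 32 UMIs in enterocytes and 2 in goblet cells. The summed level of that list was 1097 and 1107 CPM in enterocytes and 1599 and 1613 CPM in goblet cells, where its largest member was Cdkn1a, an inhibitor of the cycle, at 572 and 571 CPM against 1054 and 1033 CPM (0.87 ± 0.07). Some replication genes, such as Mcm3 and Mcm5, are listed at 0 in every cell, so a gene listed at 0 is not shown to be absent.

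The growth protocol names colonic spheroids whereas the tissue label names small intestine. Of 16 small intestine genes 5 had no UMI in either enterocyte sum, Lct and Gata4 among them, and the ileal bile acid transporter Slc10a2 was present as given above. Of 19 colon genes 7 had none, the posterior genes Hoxb13, Hoxd13 and Hoxa13 among them, whereas Car1, Saa1 and Cyp2c55 were abundant. These markers gave no single region.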

How the data were processed

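The authors deposited 1 matrix of raw UMI counts for 27998 genes in 5122 cells, with library, barcode and class in each cell name. Per the submitters' processing notes the tools include Cell Ranger and the build is mm10. Counts were summed per library and class over cells with at most 25% mitochondrial UMIs, at least 1000 UMIs and at least 500 genes, which removed 49 DMSO cells, 1 of them a goblet cell. Gene symbols were matched for 27645 identifiers. The 4 sums of the DMSO libraries were fitted in edgeR 4.0.16 (R 4.3.3) with the library as a block, trimmed mean of M-values scaling, quasi-likelihood F tests and Benjamini-Hochberg adjustment over 10556 genes. This left 1 residual degree of freedom, so the spread was estimated largely across genes. Goblet and enterocyte sums of a library come from the same culture, which is the source of the pairing. Their deviations from the class means correlated weakly across genes (r = 0.0206, or 0.101 over the 4879 genes with a mean of at least 20 CPM).

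A doublet caller (Scrublet, in scanpy 1.11.5) marked 27 cells, 0.527% of all, 4 of them DMSO goblet cells and 6 DMSO enterocytes, and these were kept. The 2 DMSO libraries shared 0 cell barcodes. Shares of cells were taken after drawing 5000 UMIs from each cell, without the shallower cells: 8 and 7 goblet cells and 13 enterocytes per library. Intervals of ratios are 95% counting intervals and floors use 3 counts over the class, both of which cover counting error only. In tests on simulated data with this design the fit recovered 48% of genes changed 1.5-fold, 76% changed 2-fold, and 94% changed 4-fold or 8-fold.

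Named genes were the 6 markers, the 15 highest and 15 lowest differences among called genes whose mean level reached 20 CPM and that had the same direction in both libraries, up to 6 called members with the largest differences and 2 with the highest level per gene list, and 9 ER stress genes. The members and the lists were chosen with earlier results of these data known. Promoters were matched for 8290 tested genes. A planned list of proteins with an ER retention signal was not used here. Alternatives covered scaling, test, filters, cells, thinning, the block and each library.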

Additional observations from a re-analysis of the deposited data

How the results depend on the processing

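No gene called in the comparison was called in the opposite direction under any of the 16 alternatives. The counts of higher and lower genes fell to 913 and 902 with DESeq2, and the higher count to 1123 with thinned cells. Leaving out 1 DMSO library in a fit over all 6 libraries, which assumes that the lone DMSO sample varies like the other groups, gave 1093 to 1153 higher and 1175 to 1399 lower genes. Without the replicate block that pairs the classes by library, 1773 genes were higher and 1852 lower, and 5 of 271 named genes lost their call. The fitted difference moved by over 1.5-fold in 33 named genes in thinned cells, 22 with drawn enterocytes, and 24 and 28 without DMSO replicate 1 and 2. The causes of these changes were not tested.

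Scaled by total counts, the sign turned for Nus1 (-0.10), H2afz (-0.033) and the medians of Notch (-0.11), translocon (-0.000145), dolichol (-0.093) and cell cycle (-0.089) genes. Other reversals were Tmbim6 with totals without Tff3, Zg16 and Fcgbp (0.067), chosen after the data were seen, and with enterocytes drawn to the goblet number (0.016). Leaving out a library gave -0.15 to 0.000504 for Tmbim6, -0.40 to 0.77 for Ptgs1, -0.36 to 0.047 for the Notch median, -0.00382 to 0.068 for the dolichol median and -0.063 to 0.024 for the cell cycle median. Avil turned without doublets (-0.17), and Ern1 in thinned cells (-0.17) and with drawn enterocytes (-0.21). The Notch median was -0.11 with DESeq2, -0.031 with a stricter filter and -0.015 without doublets. The dolichol median was -0.026 in thinned cells, the cell cycle median -0.050 at 10% mitochondrial UMIs, and the stem cell median -0.14 with a stricter filter.

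Without thinning, 94.8% and 93.0% of enterocytes had a Tff3 UMI, 71.9% and 73.4% a Zg16 UMI, and 6.12% and 5.01% a Muc2 UMI. A list of proteins with an ER retention signal was not run. With 2 libraries and 214 goblet cells, weakly expressed genes were often too low to test, and p-values carry no information on spread between animals.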

Other observations

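Genes of the interferon response and antigen presentation had 14 of 26 tested members higher in goblet cells (53.8%, against 16.9% of all genes) and 4 lower (15.4%, against 18.1%), with a median log2 difference of 0.55. Zbp1, a sensor of unusual nucleic acids, stood at 7.17 and 5.27 CPM in enterocytes and 122 and 123 CPM in goblet cells (4.30 ± 0.15 on the log2 scale). Isg15, a ubiquitin-like interferon product, stood at 56.5 and 65.7 CPM in enterocytes and 167 and 156 CPM in goblet cells (1.40 ± 0.10 on the log2 scale). Members called lower included B2m, the light chain of class I molecules, at 1487 and 1507 CPM against 1026 and 1057 CPM (-0.52 ± 0.07) and H2-K1, a class I heavy chain, at 1314 and 1279 CPM against 821 and 858 CPM (-0.63 ± 0.07). Cd74, the invariant chain of class II presentation, had no UMI in goblet cells, so that enterocytes were at least 13.3-fold higher with 3 counts allowed over the goblet class, and its call was lost with DESeq2 (adjusted p = 0.30).

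Antimicrobial and acute phase genes had 4 of 14 tested genes higher (28.6%, against 16.9% of all genes) and 5 lower (35.7%, against 18.1%). Lypd8, a protein that keeps flagellated bacteria from the epithelium, stood at 6335 and 6382 CPM in enterocytes and 10374 and 11784 CPM in goblet cells (0.80 ± 0.05 on the log2 scale). Saa1, an acute phase protein, stood at 2207 and 1997 CPM in enterocytes and 492 and 549 CPM in goblet cells (-2.01 ± 0.07 on the log2 scale). Of the genes named for other lists, Slc12a2, the basolateral chloride importer of secreting epithelia, stood at 6.36 and 5.61 CPM in enterocytes and 65.5 and 57.7 CPM in goblet cells (3.36 ± 0.18 on the log2 scale).

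1 enterocyte of DMSO replicate 2 stood apart in its ER transcripts. The 111 ER genes took 9.72% of its thinned UMIs, and the next enterocyte of that library had 3.26%. It held 17746 UMIs and 3903 genes with 8.38% mitochondrial UMIs, was not called a doublet, and its barcode occurred in 1 cell. Hspa5 took 505 UMIs, 2.85% of the cell, against a class median of 0.0112%. The same cell held 20.1% of the Creld2 UMIs, 6.12% of the Manf UMIs, 5.28% of the Hsp90b1 UMIs and 3.33% of the Ddit3 UMIs of its class and library. In DMSO replicate 1 the highest enterocyte had an ER share of 4.10%. No explanation was tested.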
